A study of Mus musculus with 9 samples.

Results

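Expression of 10 genes of fatty acid synthesis and desaturation was followed in tdTomato-positive proximal tubular cells of diabetic mice with and without the SGLT2 inhibitor dapagliflozin and of non-diabetic mice. The 10 genes were picked by name for their place in the pathway, out of 24421 genes in the deposited table, and all 10 passed the filter on low counts that left 15583 genes for testing. They fall into 3 roles. The regulators are Srebf1 and Mlxipl, the cytosolic synthesis steps are Acly, Acaca, Acacb and Fasn, and the desaturation and elongation steps are Scd1, Scd2, Elovl6 and Fads1. In edgeR's test over all 9 mice, Srebf1 in db/db-dapa against db/m was the only member that passed an adjusted p under 0.1, and no member passed that threshold together with an absolute log2 fold change over 1 in any of the 3 comparisons. Other tools and subsets of the mice gave other counts, from 0 to 6 members at an adjusted p under 0.1. The 6 came from limma with mouse weights in db/db-dapa against db/m, where 40.2% of all genes tested passed.

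The experiment had 3 groups of 3 C57BL/6 mice. The db/m mice were the non-diabetic controls, the db/db mice were diabetic and received vehicle in the drinking water, and the db/db-dapa mice were diabetic and received dapagliflozin at 1.5 mg/kg/day in the drinking water for 8 weeks. All 9 mice carried SLC34a1GCE, a CreERT2 cassette in the locus of the proximal tubular phosphate transporter Slc34a1, and the R26tdTomato reporter, and all were given 5 injections of 3 mg of tamoxifen at 8 weeks of age, so that the label marks the descendants of cells that used the Slc34a1 locus at that time. The db allele disrupts the leptin receptor and leads to obesity and hyperglycaemia. The study's methods state that cells of the kidney cortex were dispersed and sorted by flow cytometry before RNA extraction, whereas the sample labels name the kidney as the source. Age at sampling and sex were not given in the sources used here. Xist reached at most 0.68 CPM (counts scaled to a common library size) in any mouse, and 4 of 4 Y-linked genes were detected in all 9.

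Fatty acid synthesis turns citrate that leaves the mitochondria into fat in the cytosol. ATP citrate lyase (Acly) cuts citrate to acetyl-CoA, acetyl-CoA carboxylases (Acaca, Acacb) make malonyl-CoA, and fatty acid synthase (Fasn) builds palmitate, which elongases lengthen and desaturases give double bonds. SREBP1, encoded by Srebf1, is released from the endoplasmic reticulum by proteolysis when insulin and lipid supply allow, enters the nucleus and switches on these genes and its own gene. ChREBP, encoded by Mlxipl, does the same when glucose metabolites are plentiful. The pathway is best known from liver and fat. Proximal tubular cells rely mainly on fatty acid oxidation for their energy, and lipid droplets in the tubule are a known feature of the diabetic kidney.

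Library totals ran from 2733349 to 9033123 estimated counts. Those of the db/m mice lay between 4817721 and 6571572, those of the db/db mice between 2733349 and 7635669, and those of the db/db-dapa mice between 6981225 and 9033123, so that every db/db-dapa library was deeper than every db/m library. The 7 proximal tubule markers (Slc34a1, Lrp2, Cubn, Slc5a2, Slc5a12, Slc22a6, Hnf4a) were found in all mice, with a summed level of 9377 to 15622 CPM. Markers of fat cells, which are known to express the members strongly, were at or near 0. Adipoq, Retn, Cfd and Lep were at 0 in all 9 mice, and the 7 adipocyte markers together reached at most 0.523 CPM. These are bulk samples of sorted cells, so a smaller share of cells that use a gene and less RNA of that gene per cell cannot be told apart.

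Stretches upstream of all 3 listed start sites are shown for Srebf1, the member whose difference was called, and upstream of the listed start site of Fasn, the final enzyme of synthesis that SREBP1 is known to act on. They are the 250 bases before RefSeq start sites on the minus strand of GRCm38.p6, written 5′ to 3′ along the gene, and capitals mark the CCAAT letters of the NF-Y box on either strand (ATTGG where the box lies on the other strand). NF-Y is a general factor known to work together with SREBP1 at lipogenic promoters. The Srebf1 sequences lie at chr11:60222582-60222831, chr11:60220628-60220877 and chr11:60210472-60210721, and that of Fasn at chr11:120824548-120824797.
Srebf1, start site 1: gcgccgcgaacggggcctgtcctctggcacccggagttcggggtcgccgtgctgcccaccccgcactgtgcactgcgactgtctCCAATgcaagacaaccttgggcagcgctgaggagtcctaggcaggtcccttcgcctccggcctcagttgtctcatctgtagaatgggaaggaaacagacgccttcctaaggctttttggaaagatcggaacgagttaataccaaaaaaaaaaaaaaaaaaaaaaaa
Srebf1, start site 2: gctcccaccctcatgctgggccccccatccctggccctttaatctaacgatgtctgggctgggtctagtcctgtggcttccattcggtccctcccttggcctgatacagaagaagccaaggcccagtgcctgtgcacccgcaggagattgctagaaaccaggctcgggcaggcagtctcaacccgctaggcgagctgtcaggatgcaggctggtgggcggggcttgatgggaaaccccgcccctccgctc
Srebf1, start site 3: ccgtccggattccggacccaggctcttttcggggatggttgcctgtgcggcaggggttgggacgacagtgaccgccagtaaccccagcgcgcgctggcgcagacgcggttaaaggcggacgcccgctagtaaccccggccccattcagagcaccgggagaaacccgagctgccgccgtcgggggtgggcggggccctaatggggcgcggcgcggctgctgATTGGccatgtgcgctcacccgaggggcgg
Fasn: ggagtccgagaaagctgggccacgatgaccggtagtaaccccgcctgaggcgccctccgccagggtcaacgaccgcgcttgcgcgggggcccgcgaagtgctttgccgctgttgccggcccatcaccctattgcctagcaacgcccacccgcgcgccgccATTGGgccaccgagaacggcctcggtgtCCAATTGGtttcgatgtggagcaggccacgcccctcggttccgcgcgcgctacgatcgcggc
The Fasn stretch held 3 boxes, at -90, -62 and -59 from the start, of which the last pair overlap. Of the Srebf1 stretches, that of start site 1 held 1 box at -166, that of start site 3 held 1 at -30 and that of start site 2 held none. RefSeq windows of 300 bases, with 250 before and 50 after the start, were found for 7 members in 10 windows. Scd1, Scd2 and Fads1 had none. The only windows of Acaca and Acacb, from bases 84195188 and 114165268, lie inside the annotated genes, which start at 84129672 and 114146535. These windows do not cover the outermost annotated starts of Acaca and Acacb, and both are among the 10 counted. Letters CCAAT were found in 6 of the 10 windows, belonging to 5 genes, and in 37.4% of 32851 promoters of the same length. The Sp1 box GGGCGG was found in 4 windows of 3 genes, against 35.7% of all promoters. The sterol response letters TCACNCCAC were found once, at -136 in a window of Mlxipl, against 1.24% of all promoters, and the E-box CACGTG once, at -98 in another window of Mlxipl, against 7.15%. Both strands were searched for each motif, and a match describes letters, not a bound site. Only the exact letters given were searched, so a window without a match can still hold a site with other letters.

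Levels of the members differed widely. Per kilobase of the longest annotated transcript and averaged over the 9 mice, Mlxipl stood at 92.4 ± 16.7 CPM per kb (SD, n = 9) and was followed by Acly at 33.2 ± 14.5, Fads1 at 22.1 ± 3.57, Srebf1 at 11.2 ± 3.97, Fasn at 6.00 ± 2.45, Scd2 at 5.98 ± 2.31, Elovl6 at 3.31 ± 0.903, Acaca at 2.62 ± 0.892, Scd1 at 1.65 ± 0.746 and Acacb at 1.57 ± 0.508 CPM per kb. Only Mlxipl was separated from the next gene, in that its lowest mouse (70.8 CPM per kb) lay above the highest mouse of Acly (58.7 CPM per kb). Each of the other neighbours in this order overlapped over the mice. Mlxipl, the ChREBP gene, ranked 1 in each group taken alone. Scd1, a major desaturase of liver and fat, ranked 7 of 10 in db/m at 2.43 CPM per kb and 10 of 10 in db/db and db/db-dapa at 1.15 and 1.36 CPM per kb, and Scd2 ranked above Fasn in db/m and db/db and below it in db/db-dapa.

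**Figure D1:**
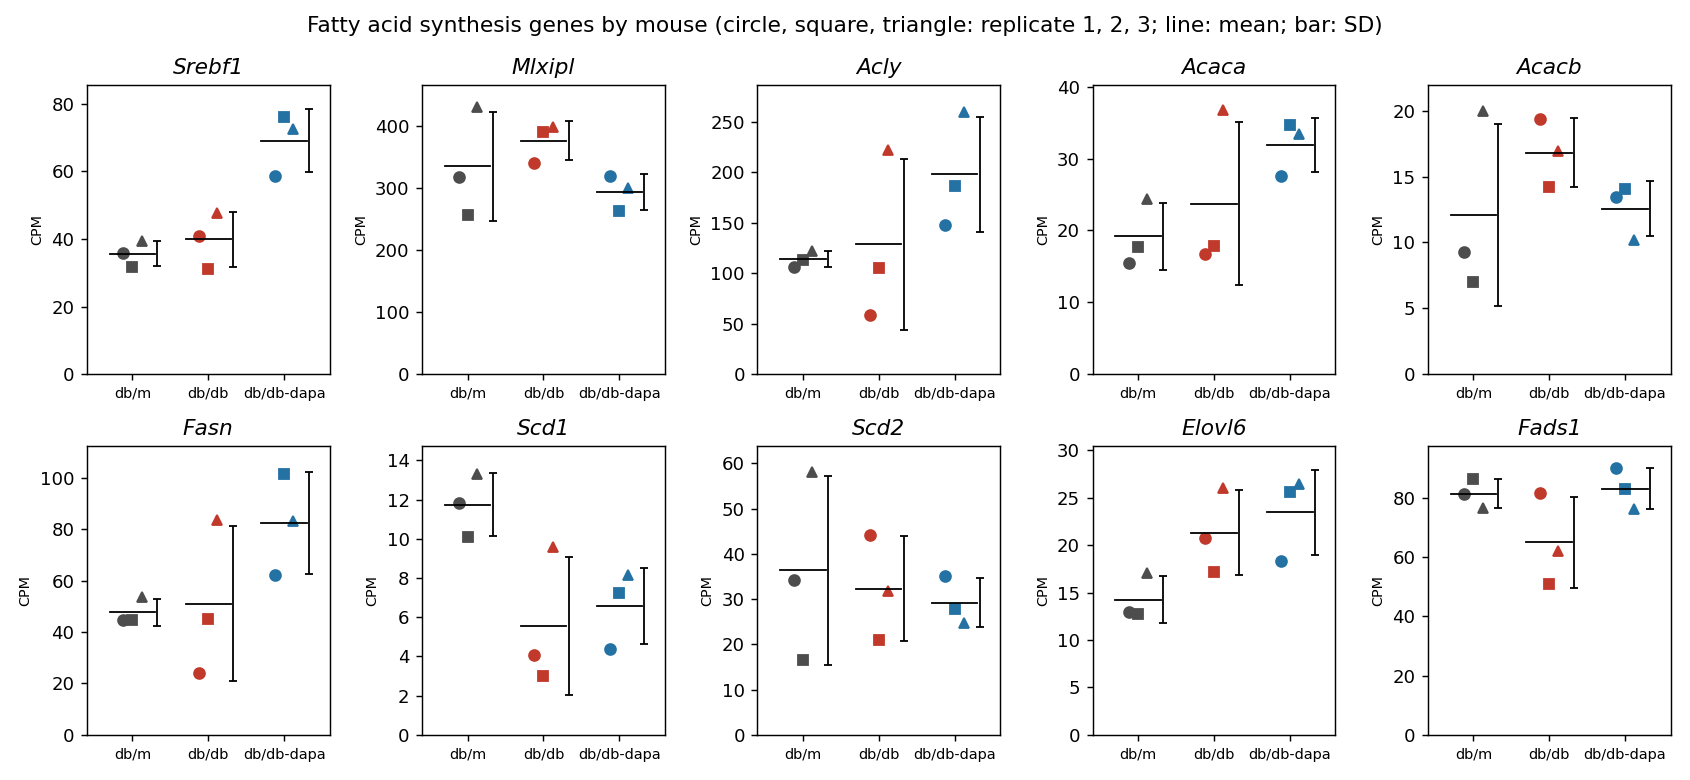
Level of each member in CPM (y axis, from 0) in the 3 mice of each group (x axis), with circle, square and triangle for replicates 1, 2 and 3, a line at the group mean and a bar of 1 SD. The 3 db/db-dapa mice of Srebf1 lie between 58.6 and 76.1 CPM and above all 6 other mice, while in Acly and Fasn the db/db mice spread on both sides of the db/m mice.

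Among the regulators, Srebf1 separated the treated mice from all others. Srebf1 (chromosome 11, 60199089 to 60222581, minus strand, GRCm38) was at 35.9, 31.8 and 39.3 CPM in the db/m mice, at 40.8, 31.2 and 47.6 CPM in the db/db mice and at 58.6, 76.1 and 72.6 CPM in the db/db-dapa mice. The 3 treated mice lay above all 6 others, and the db/db range contained the db/m range. Against db/m, Srebf1 rose in db/db-dapa by a log2 fold change of 0.96 ± 0.19 (SE; 95% interval 0.53 to 1.38) with adjusted p = 0.0627 in edgeR's quasi-likelihood test, in which it ranked 101 of 15583 genes. Against db/db the log2 fold change was 0.79 ± 0.19 (0.37 to 1.22), with adjusted p = 0.854 in the same edgeR fit, where it ranked 17 and no gene of the 15583 was called. Between db/db and db/m the log2 fold change was 0.17 ± 0.20 (-0.26 to 0.59) with adjusted p = 0.747 in edgeR. The call against db/m was lost in edgeR without any of the 3 db/m mice (adjusted p = 0.24, 0.146 and 0.173 without replicates 1, 2 and 3) and without db/db-dapa replicate 2 (0.359) or 3 (0.244), with log2 fold changes from 0.88 to 1.07 over all 9 mice left out in turn. Exons of Srebf1 overlap those of Rai1 on the opposite strand, and whether the counting used strand was not given in the sources used here.

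Mlxipl did not follow Srebf1. Mlxipl (chromosome 5, 135089890 to 135138382) was at 317, 256 and 430 CPM in db/m, at 340, 390 and 398 CPM in db/db and at 319, 262 and 300 CPM in db/db-dapa. The treated mice all lay below the db/db mice and inside the range of the db/m mice. The log2 fold change of db/db-dapa against db/db was -0.36 ± 0.20 (-0.80 to 0.09; adjusted p = 0.854 in edgeR), that of db/db against db/m was 0.17 ± 0.20 (-0.28 to 0.61) and that of db/db-dapa against db/m was -0.19 ± 0.20 (-0.63 to 0.26).

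Acly, Fasn and Acaca shared a pattern over the mice. Acly (chromosome 11, 100476353 to 100528000) was at 106, 114 and 122 CPM in db/m, at 58.5, 105 and 222 CPM in db/db and at 148, 186 and 260 CPM in db/db-dapa. Fasn (chromosome 11, 120805846 to 120824547) was at 44.7, 44.7 and 53.7 CPM in db/m, at 24.1, 45.2 and 83.6 CPM in db/db and at 62.2, 102 and 83.3 CPM in db/db-dapa. Acaca (chromosome 11, 84129672 to 84401651) was at 15.4, 17.6 and 24.4 CPM in db/m, at 16.7, 17.8 and 36.8 CPM in db/db and at 27.5, 34.7 and 33.4 CPM in db/db-dapa. In each of the 3 genes the treated mice lay above all db/m mice, while the db/db mice were spread, with replicate 3 far above replicates 1 and 2 and within or above the treated range.

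The db/db-dapa against db/m log2 fold changes of these genes were alike in size. They were 0.80 ± 0.38 for Acly (-0.04 to 1.64; adjusted p = 0.292), 0.79 ± 0.35 for Fasn (0.02 to 1.56; adjusted p = 0.268) and 0.74 ± 0.30 for Acaca (0.09 to 1.39; adjusted p = 0.241) in edgeR, none past the threshold. Against db/db the log2 fold changes were 0.61 ± 0.38 for Acly, 0.67 ± 0.35 for Fasn and 0.40 ± 0.30 for Acaca, each with adjusted p = 0.854. Between db/db and db/m they were 0.19 ± 0.38 for Acly, 0.12 ± 0.35 for Fasn and 0.34 ± 0.30 for Acaca, and leaving out db/db replicate 3 turned them to -0.47, -0.44 and -0.15. For Acaca, 42.7% of the 101-base stretches of the longest transcript, 101 bases being the read length, also occur in the annotated gene Gm5182, so that its level is less certain than that of the other members.

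Acacb, which encodes the carboxylase bound to the mitochondrial surface and linked to the control of fatty acid oxidation, stood apart from the other synthesis genes. Acacb (chromosome 5, 114146535 to 114250761) was at 9.29, 6.98 and 19.98 CPM in db/m, at 19.4, 14.2 and 16.9 CPM in db/db and at 13.5, 14.0 and 10.2 CPM in db/db-dapa. The treated mice lay just below all db/db mice, and the db/m mice spanned both groups. Its log2 fold changes were 0.49 ± 0.35 for db/db against db/m, 0.07 ± 0.35 for db/db-dapa against db/m and -0.42 ± 0.34 for db/db-dapa against db/db, and the smallest adjusted p of the 3 in edgeR was 0.576.

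Scd1, the stearoyl-CoA desaturase that makes oleate and a classical SREBP1 target in liver, lay on the other side of db/m. Scd1 (chromosome 19, 44394455 to 44407879) was at 11.8, 10.1 and 13.3 CPM in db/m, at 4.08, 3.001 and 9.60 CPM in db/db and at 4.40, 7.22 and 8.14 CPM in db/db-dapa. All 6 diabetic mice, treated or not, lay below all 3 db/m mice, and its db/db replicates 1 and 2 had 12 and 15 counts. The log2 fold change was -1.02 ± 0.41 for db/db against db/m (-1.92 to -0.12; adjusted p = 0.305 in edgeR), -0.83 ± 0.40 for db/db-dapa against db/m (-1.70 to 0.05; adjusted p = 0.293) and 0.19 ± 0.41 for db/db-dapa against db/db (-0.71 to 1.10; adjusted p = 0.937). Without db/db replicate 3 the first value became -1.76 with adjusted p = 0.0499. Scd1 shares 2.62% of its 101-base stretches with Scd2, Scd3, Scd4 or AC123853.3, and its estimated count was fractional in 6 mice.

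The sister gene Scd2, at 34.3, 16.6 and 58.2 CPM in db/m, 44.2, 21.0 and 31.7 CPM in db/db and 35.2, 27.8 and 24.7 CPM in db/db-dapa, varied most among the db/m mice. Scd2 (chromosome 19, 44293674 to 44306864) was the more abundant of the pair per kilobase, and its groups overlapped in every comparison. Its log2 fold changes were -0.18 ± 0.39, -0.31 ± 0.39 and -0.13 ± 0.39 in the order used for Scd1.

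Elovl6, which elongates palmitate to stearate, was the member that lay above the db/m range in both diabetic groups. Elovl6 (chromosome 3, 129532355 to 129638495) was at 12.9, 12.7 and 17.1 CPM in db/m, at 20.7, 17.2 and 26.0 CPM in db/db and at 18.3, 25.6 and 26.5 CPM in db/db-dapa. The gap was narrow, from 17.1 CPM in the highest db/m mouse to 17.2 CPM in the lowest db/db mouse. The log2 fold change against db/m was 0.59 ± 0.24 in db/db (0.08 to 1.11; adjusted p = 0.295) and 0.73 ± 0.23 in db/db-dapa (0.22 to 1.23; adjusted p = 0.182), and that between the diabetic groups was 0.13 ± 0.23 (-0.37 to 0.63; adjusted p = 0.92, all edgeR).

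Fads1, the delta-5 desaturase of polyunsaturated fatty acids, overlapped between the groups in every comparison. Fads1 (chromosome 19, 10182888 to 10196877) was at 81.3, 86.2 and 76.6 CPM in db/m, at 81.6, 51.0 and 62.1 CPM in db/db and at 90.0, 83.0 and 76.2 CPM in db/db-dapa. The db/db mice numbered 2 and 3 had the lowest values of the 9, and the other db/db mouse lay inside the range of both other groups. The log2 fold changes were -0.33 ± 0.19 for db/db against db/m (-0.74 to 0.08), 0.03 ± 0.19 for db/db-dapa against db/m (-0.38 to 0.44) and 0.36 ± 0.19 for db/db-dapa against db/db (-0.05 to 0.77; adjusted p = 0.854 in edgeR).

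**Figure D2:**
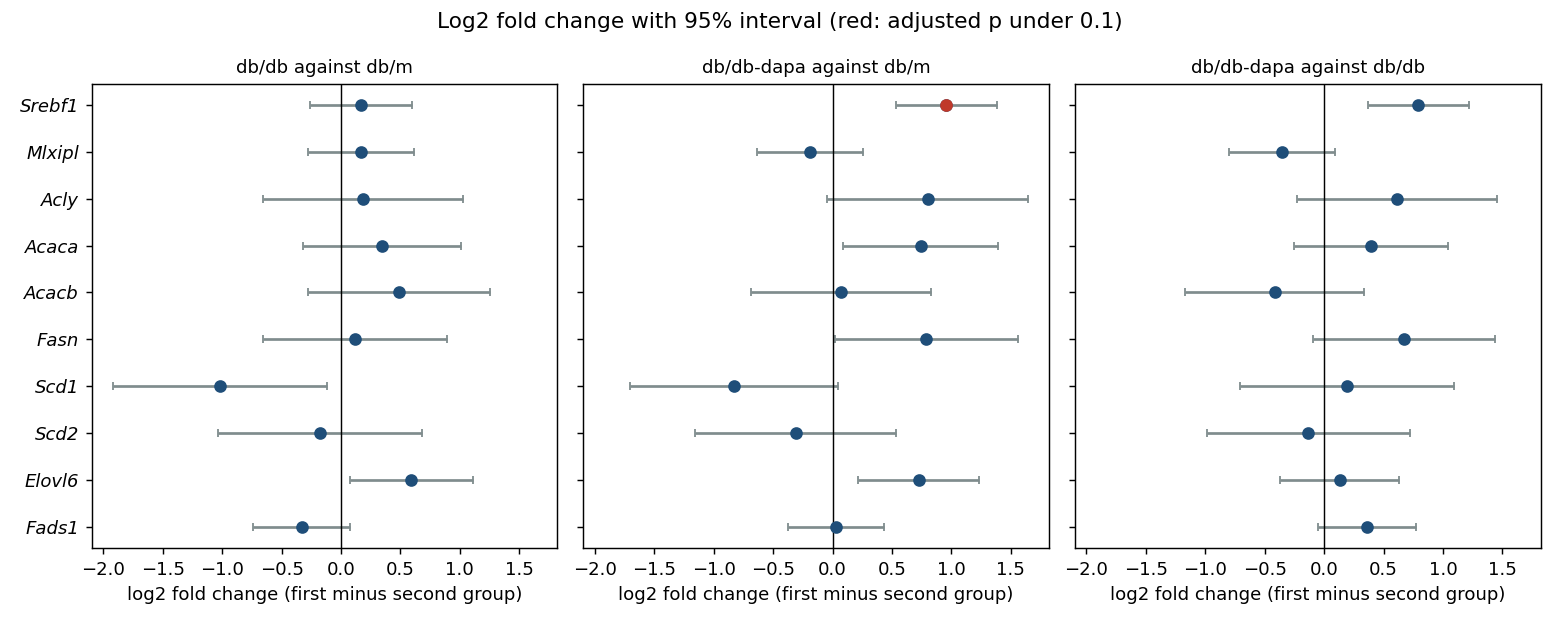
Log2 fold change of each member (x axis, first minus second group) with its 95% interval in the 3 comparisons (panels), red where adjusted p is under 0.1. Srebf1 in db/db-dapa against db/m, at 0.96, is the only red point, and Scd1 is the member farthest to the left in both comparisons with db/m.

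Counted over the members, the comparison of db/db with db/m asks what the diabetic genotype does without the drug. Of the 10 members, 0 passed both thresholds, against 1.24% of all genes tested, and 0 passed an adjusted p under 0.1, against 0.796% of genes higher and 0.879% lower in db/db. At an unadjusted p under 0.05, which 13.7% of all genes reached, there were 2, Scd1 and Elovl6. DESeq2 and limma on log2(CPM + 1) also gave 0 members at an adjusted p under 0.1, where 5.11% and 1.75% of all genes passed. Elovl6 did not overlap between the groups on the higher side (8.28% of all genes) and Scd1 on the lower side (8.13%). The median log2 fold change of the members was 0.17, beside 0.020 over all genes tested.

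In db/db-dapa against db/m, the comparison of treated diabetic with non-diabetic mice, 0 members passed both thresholds (1.05% of all genes) and Srebf1 alone passed an adjusted p under 0.1 (0.751% of all genes on the higher side, 0.558% on the lower). DESeq2 added Elovl6, with adjusted p = 0.0909, where 6.39% of all genes passed, and limma on log2(CPM + 1) gave Srebf1 alone, where 1.19% passed. At an unadjusted p under 0.05, which 18.2% of all genes reached, there were 4, Srebf1, Acaca, Fasn and Elovl6. There were 5 members that did not overlap on the higher side, Srebf1, Acly, Acaca, Fasn and Elovl6, where 14.4% of all genes lay, and 1 on the lower side, Scd1, where 13.7% lay. The median log2 fold change of the members was 0.40, beside -0.022 over all genes.

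For db/db-dapa against db/db, the comparison of the drug within the diabetic genotype, 0 members passed either threshold in edgeR, where 0% of all genes passed. At an unadjusted p under 0.05, which 5.19% of all genes reached, there was 1, Srebf1. DESeq2 and limma on log2(CPM + 1) gave 0 members at an adjusted p under 0.1, where 0.135% and 0% of all genes passed. Srebf1 did not overlap on the higher side (4.9% of all genes), and Mlxipl and Acacb did not on the lower side (5.29%). The median of the members was 0.28, beside -0.009 over all genes. The 3 comparisons share mice, so their values for a member are not independent of each other.

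The db/db mice were not alike. In db/db replicate 3, the deepest library of its group, 7 members (Srebf1, Mlxipl, Acly, Acaca, Fasn, Scd1 and Elovl6) had their highest value of the group, and the summed level of Acly, Acaca, Acacb and Fasn was 359 CPM, beside 119 and 182 CPM in replicates 1 and 2. In db/m that sum was 175, 183 and 220 CPM and in db/db-dapa 251, 337 and 387 CPM, so db/db replicate 3 lay inside the treated range. The summed level of markers of the S3 segment, the straight last part of the proximal tubule, was also highest in replicate 3 within db/db. Slc22a7, at 0.2 to 0.34 CPM in the db/db mice, had little part in that sum. The 4 listed (Slc22a7, Slc7a13, Atp11a, Cyp7b1) summed to 112 and 159 CPM in db/db replicates 1 and 2 and to 737 CPM in replicate 3, beside 1052 to 1292 CPM in db/m and 529 to 788 CPM in db/db-dapa. Of the 4, 1 (Slc22a7) passed both thresholds as lower in db/db than in db/m, with 0.2 to 0.34 CPM against 42.9 to 73.5 CPM, and it also passed them in db/db-dapa at 0.284 to 0.525 CPM, and Cyp7b1 was at 0 in db/db-dapa replicate 2. The proximal tubule markers summed to 13155, 9916 and 15622 CPM in the db/db mice, to 9377, 10237 and 9485 CPM in db/m and to 11960, 13822 and 15306 CPM in db/db-dapa. Their part in the members' values was not tested.

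**Figure D3:**
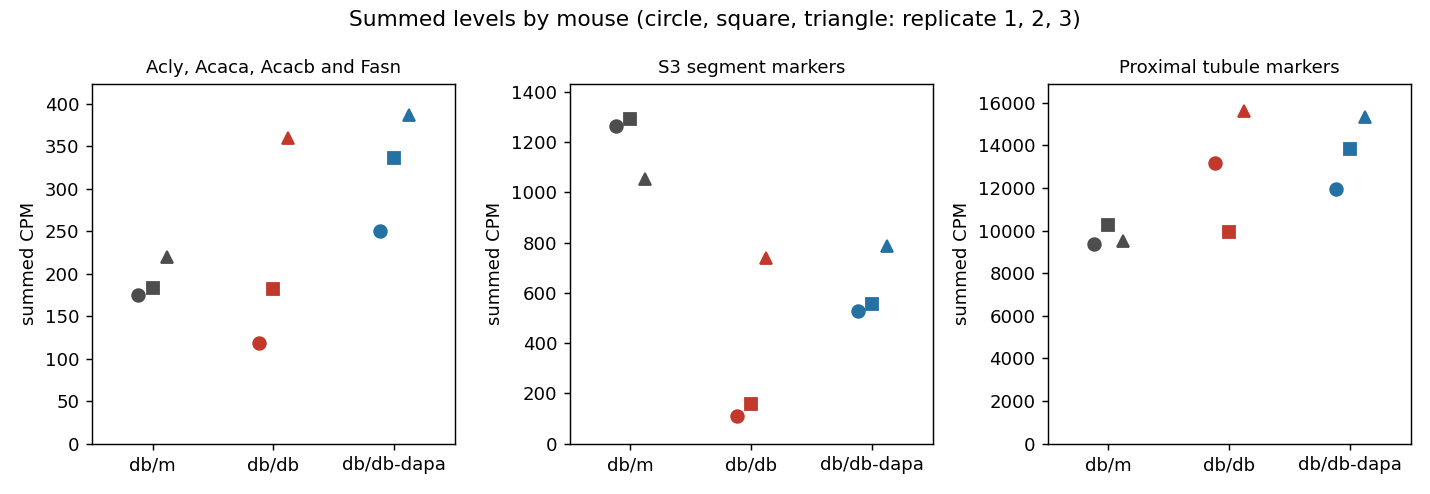
Summed CPM (y axes, from 0) of Acly, Acaca, Acacb and Fasn, of the 4 S3 segment markers and of the 7 proximal tubule markers in each mouse, by group (x axes), with circle, square and triangle for replicates 1, 2 and 3. The triangle of db/db stands at 359, 737 and 15622 CPM in the 3 panels, above both other db/db mice in each.

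Without db/db replicate 3 the counts of members changed. That mouse was singled out here on the members' own values, and leaving it out lowers the db/db means of the genes high in it. The counts below are therefore no independent support for a difference. In db/db-dapa against db/db, 4 members then passed an adjusted p under 0.1 in edgeR, all higher in treated mice, where 2.69% of all genes passed. They were Srebf1 (log2 fold change 0.97, adjusted p = 0.0747), Acly (1.28, 0.0827), Fasn (1.24, 0.0829) and Acaca (0.90, 0.0985), and Acly and Fasn passed both thresholds. In db/db-dapa against db/m 5 members passed, Srebf1, Acaca, Elovl6, Acly and Fasn, where 10.6% of all genes passed and the fold changes themselves moved little, since that mouse enters neither mean. In db/db against db/m Scd1 passed, where 1.94% of all genes did.

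Markers of other cells were also found, at levels that differed between the mice. The 5 endothelial markers summed to 34.8 to 168 CPM, the 6 leukocyte markers to 26.2 to 76.7 CPM, the 5 stromal markers to 1.7 to 12.1 CPM and the 5 collecting duct markers to 127 to 545 CPM. The 4 markers of thick limb and distal tubule summed to 724 to 2237 CPM and the 3 podocyte markers to 16.2 to 214 CPM, the latter highest in db/db-dapa replicate 1. The 3 erythroid markers reached 802 CPM in db/db replicate 2, beside 16.6 to 239 CPM in the other mice, and 7 immediate-early and heat shock genes summed to 3571 to 8195 CPM. The db/m mouse numbered 3 had the highest collecting duct and distal sums and also the highest value of its group for 9 members, all but Fads1. Whether other cells or their RNA had a part in the members' values was not tested.

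Around the members, 69 further genes of the pathway were listed by role and 64 of them were tested. Olah, Elovl3 and Scd4 had no counts in any mouse, and Elovl4 and Scd3 did not pass the filter. In db/db against db/m 28 of the 64 lay higher and 36 lower, with 2 and 1 at an adjusted p under 0.1. In db/db-dapa against db/m 41 lay higher and 23 lower, with 2 and 0 past that threshold, and against db/db 51 lay higher and 13 lower, with 0 past it in edgeR and 2 in DESeq2. Of all 15583 genes tested, 8046, 7556 and 7595 lay higher in the 3 comparisons. Past that threshold in edgeR were 0.796% higher and 0.879% lower, then 0.751% and 0.558%, then 0% and 0%. DESeq2 passed 0.135% in db/db-dapa against db/db. At an unadjusted p under 0.05 the 64 genes gave 15, 17 and 7 in the 3 comparisons, and the shares of all genes tested at that limit, 13.7%, 18.2% and 5.19%, stand behind each count by role given here. Their median log2 fold changes in the 3 comparisons were -0.045, 0.18 and 0.22. The genes past the threshold were Me1, Pklr, Txnip and Elovl2.

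Me1, the cytosolic malic enzyme that supplies NADPH to fatty acid synthase, was at 607, 620 and 567 CPM in db/m, at 228, 307 and 345 CPM in db/db and at 430, 465 and 526 CPM in db/db-dapa. The 3 groups did not overlap, with the treated mice between the others. Me1 fell in db/db against db/m by 1.03 ± 0.19 on the log2 scale (adjusted p = 0.0307 in edgeR), and its log2 fold change was 0.69 ± 0.19 for db/db-dapa against db/db (adjusted p = 0.854) and, with treated mice set against db/m, -0.34 ± 0.19 (adjusted p = 0.341). The call was lost without db/m replicate 1 (adjusted p = 0.124) and in a fit of only the 6 mice compared (0.107). Of the 10 genes of acetyl-CoA and NADPH supply, the other 9 did not pass the adjusted threshold in any comparison in edgeR over all 9 mice. Idh1, the cytosolic isocitrate dehydrogenase and the most abundant of them per kilobase, ran from 830 CPM in db/db replicate 1 to 1296 CPM in db/db-dapa replicate 3, and its treated mice, at 1115, 1218 and 1296 CPM, lay above the db/m mice, at 841, 923 and 855 CPM. Its log2 fold change in db/db-dapa against db/m was 0.47 ± 0.17 (adjusted p = 0.217 in edgeR), and it passed the threshold in DESeq2 (adjusted p = 0.064) and in edgeR with only the 6 mice compared (0.0832) or without db/db replicate 3 (0.092).

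Genes known to answer to glucose through ChREBP or its relative MondoA (7 listed, 7 tested) gave 2 calls in db/db against db/m, at a median log2 fold change of 0.58. Pklr, the liver-type pyruvate kinase that feeds carbon from glucose towards lipid, was at 27.7, 43.1 and 24.6 CPM in db/m, at 58.8, 68.2 and 97.8 CPM in db/db and at 67.9, 96.4 and 86.4 CPM in db/db-dapa. It rose in both diabetic groups against db/m, by 1.24 ± 0.26 (adjusted p = 0.0583) and 1.39 ± 0.26 (adjusted p = 0.0511), and the log2 fold change between the diabetic groups was 0.15 ± 0.25. Txnip, the thioredoxin-interacting protein and a sensitive marker of cell glucose, was at 170, 121 and 157 CPM in db/m, at 238, 313 and 319 CPM in db/db and at 175, 166 and 209 CPM in db/db-dapa. It rose in db/db against db/m by 0.96 ± 0.19 (adjusted p = 0.046), while the treated mice lay below all db/db mice (-0.66 ± 0.19, adjusted p = 0.854) and overlapped the db/m mice (0.30 ± 0.19, adjusted p = 0.404). Khk, ketohexokinase and the most abundant of the list per kilobase, overlapped in all 3 comparisons, at 740 to 1273 CPM over the mice. Each of the calls of Pklr and Txnip was lost in edgeR when some of the mice were left out, with adjusted p up to 0.258 and 0.278 for Pklr against db/m in db/db and db/db-dapa, and up to 0.164 for Txnip, and in a fit of only the 6 mice compared the db/db calls had adjusted p of 0.12 for Pklr and 0.139 for Txnip.

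**Figure D4:**
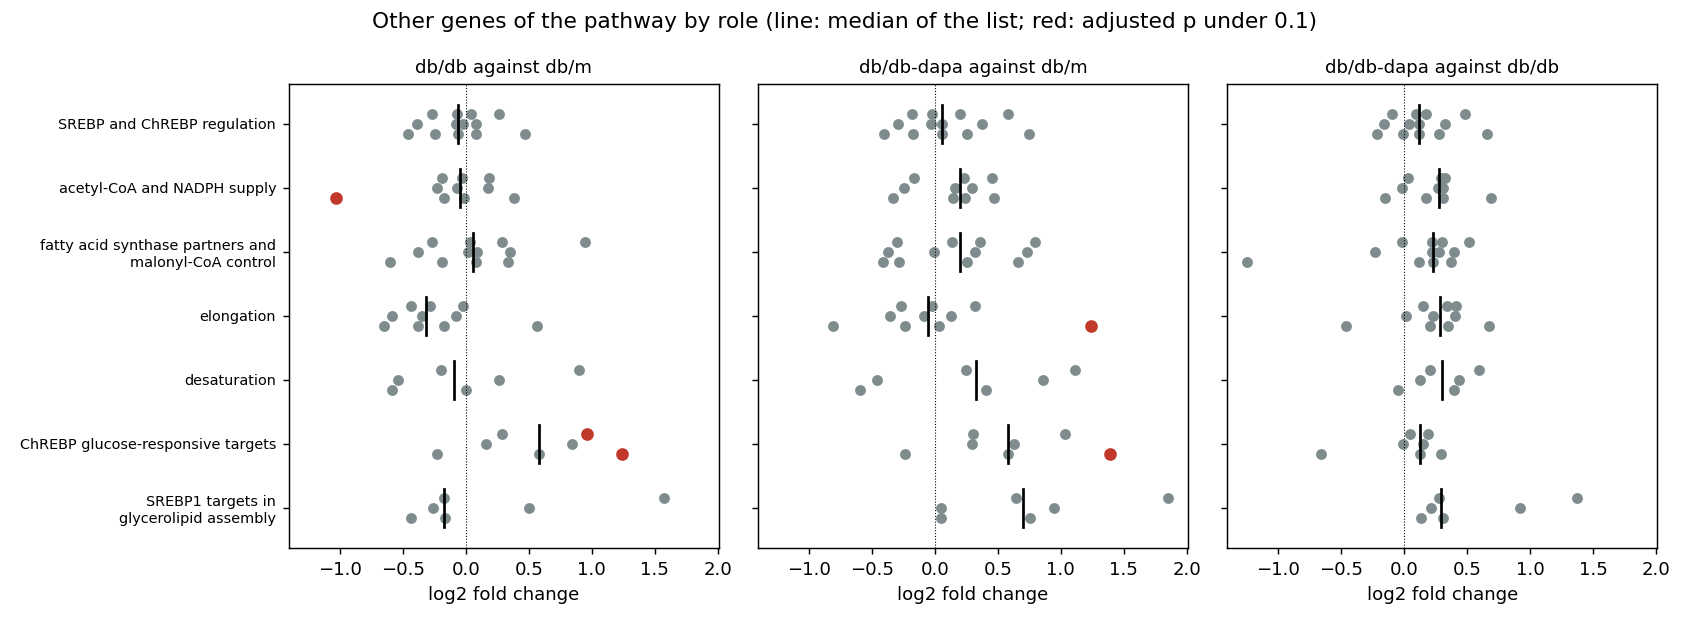
Log2 fold change (x axis) of the 64 other pathway genes tested, by role (rows), in the 3 comparisons (panels), with a line at each list's median and red points at adjusted p under 0.1. The red points are Me1, Pklr and Txnip in db/db against db/m and Elovl2 and Pklr in db/db-dapa against db/m, and no point is red in db/db-dapa against db/db.

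The elongation list (12 listed, 10 tested) had 9 of 10 genes lower in db/db than in db/m, where 7535 of all 15583 genes tested were lower. Its median log2 fold change was -0.32, with 0 calls at an adjusted p under 0.1 (3 at an unadjusted p under 0.05, edgeR). Elovl2, which elongates polyunsaturated fatty acids, was at 17.5, 31.2 and 17.5 CPM in db/m, at 23.1, 29.6 and 44.1 CPM in db/db and at 49.5, 55.3 and 51.6 CPM in db/db-dapa. Its treated mice lay above all other mice, and it rose against db/m by 1.24 ± 0.27 (adjusted p = 0.0861 in edgeR), with a log2 fold change of 0.67 ± 0.27 against db/db (adjusted p = 0.854). That call was lost when any of 5 mice was left out, with adjusted p up to 0.365. Hsd17b12, the ketoacyl reductase of the elongation complex, was at 74.8, 86.9 and 69.9 CPM in db/m, at 44.2, 42.2 and 60.8 CPM in db/db and at 70.5, 58.4 and 67.2 CPM in db/db-dapa, with a log2 fold change of -0.65 ± 0.19 in db/db against db/m (adjusted p = 0.162 in edgeR and 0.0382 in DESeq2). Tecr, the enoyl reductase of the complex, was the most abundant of the list per kilobase at 146 to 257 CPM, with a log2 fold change of -0.28 ± 0.19 in the same comparison.

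In the desaturation list (8 listed, 6 tested) none passed an adjusted p under 0.1 in edgeR, and 2, 3 and 0 had an unadjusted p under 0.05 in the 3 comparisons. Of the 6 tested, 3, 4 and 5 lay higher in those comparisons, at median log2 fold changes of -0.094, 0.32 and 0.30. Cyb5a, cytochrome b5, which passes electrons to desaturases, was at 1380, 1054 and 1232 CPM in db/m, at 697, 1130 and 695 CPM in db/db and at 856, 761 and 819 CPM in db/db-dapa, all treated mice lying below all db/m mice (-0.59 ± 0.22, adjusted p = 0.217). Fads6 had at most 18 counts in a mouse, and its log2 fold change of 0.90 ± 0.75 in db/db against db/m had an adjusted p of 0.632 in edgeR.

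Among the 6 genes of glycerolipid assembly known as SREBP1 targets (Gpam, Agpat2, Lpin1, Pnpla3, Acsl3, Acsl5), 6 of 6 lay above db/m in the treated mice and 6 of 6 above db/db. Of all 15583 genes tested, 7556 and 7595 did. Pnpla3 averaged only 0.264 CPM over the mice, and the log2 fold change of Agpat2 against db/m was 0.05. Of the 6 genes, 0 passed an adjusted p under 0.1, and 3 and 1 had an unadjusted p under 0.05 (edgeR). Their median log2 fold changes were -0.17 for db/db against db/m, 0.70 for db/db-dapa against db/m and 0.29 for db/db-dapa against db/db. Gpam, the mitochondrial acyltransferase that starts glycerolipid synthesis, repeated the spread of Acly and Fasn, at 28.5, 46.1 and 19.5 CPM in db/m, 41.5, 33.4 and 203 CPM in db/db and 53.4, 132 and 156 CPM in db/db-dapa. Its log2 fold change of 1.57 ± 0.64 in db/db against db/m (adjusted p = 0.309) became 0.23 without db/db replicate 3. Agpat2, the most abundant of the list per kilobase, overlapped in all 3 comparisons at 19.9 to 38.9 CPM.

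Regulators of SREBP and ChREBP (13 listed, 13 tested) gave 0 calls at an adjusted p under 0.1 in edgeR, with 3, 2 and 1 at an unadjusted p under 0.05. In db/db-dapa against db/m 7 lay higher and 6 lower, at a median log2 fold change of 0.056. Mlx and Usf1 did not overlap there on the lower side, where 13.7% of all genes lay. Their treated mice were at 49.6 to 60.7 and 28.6 to 32.9 CPM, against 62.2 to 70.1 and 33.2 to 44.4 CPM in db/m. Insig1, which holds SREBP in the endoplasmic reticulum and is itself an SREBP target, was singled out after its values were seen. It was at 55.3, 48.2 and 48.4 CPM in db/m, at 43.2, 51.2 and 49.0 CPM in db/db and at 65.6, 78.9 and 82.1 CPM in db/db-dapa, so that its treated mice, like those of Srebf1, lay above all 6 others. Its log2 fold change was 0.58 ± 0.16 against db/m (adjusted p = 0.14) and 0.66 ± 0.16 against db/db (adjusted p = 0.854). Mlxip, the gene of MondoA, was at 18.3, 20.6 and 16.2 CPM in db/m, 22.8, 27.6 and 25.8 CPM in db/db and 20.2, 24.7 and 26.7 CPM in db/db-dapa (0.47 ± 0.19 for db/db against db/m, adjusted p = 0.301). Nr1h2, which encodes the oxysterol receptor LXR beta and was the most abundant of the list per kilobase, overlapped in all 3 comparisons at 68.9 to 98.2 CPM.

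The partners of fatty acid synthase and the enzymes that control malonyl-CoA (13 listed, 12 tested) also gave 0 calls at an adjusted p under 0.1 in edgeR, with 1, 2 and 1 at an unadjusted p under 0.05 and medians of 0.060, 0.20 and 0.23. Thrsp, the lipogenic Spot 14 protein of liver and fat, had at most 8 counts in any mouse. Prkag1, a subunit of the AMP-activated kinase that switches off acetyl-CoA carboxylase, was the most abundant of the list per kilobase at 53.7 to 75.9 CPM, and all db/db and all db/db-dapa mice lay below all db/m mice (-0.27 ± 0.16 and -0.28 ± 0.16, adjusted p = 0.499 and 0.353). The other listed subunits of this kinase (Prkaa1, Prkaa2, Prkab1, Prkab2, Prkag2) had higher mean CPM in both diabetic groups than in the non-diabetic mice. Prkag2 was picked out after its values were seen. Its treated mice, at 64.7 to 85.2 CPM, lay above all non-diabetic mice, at 40.9 to 51.3 CPM. For the remaining subunits, treated and non-diabetic mice overlapped.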

How the data were processed

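RNA of sorted tdTomato-positive cells from 9 mice was made into libraries with a stranded mRNA kit and read as 101 bp single ends. The submitters' processing notes name TopHat2 2.0.13, Bowtie2 2.2.3, SAMtools 0.1.19 and Cufflinks 2.2.1 and the mm10 build. The deposited table, named as FPKM by the authors, was read here as estimated counts per gene, an inference from its values: 85.9% of the values above 0 are exactly whole, and the mice differ in their totals. If the values were FPKM, the tests and CPM given here would not apply. They were rounded. Genes at 0.3 CPM or more in at least 2 mice were kept (15583 of 24421) and tested with edgeR 4.0.16 in R 4.3.3 (TMM scaling, quasi-likelihood, group as the only term, all 9 mice, Benjamini-Hochberg adjustment over all genes tested). A call means adjusted p below 0.1 at any fold. Passing both thresholds means adjusted p below 0.1 with a log2 fold change beyond 1 in either direction. Errors of log2 fold changes are standard errors with 95% intervals from the fit. Replicates are separate mice. The common biological coefficient of variation was 0.259.

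Alternatives were DESeq2 1.42.0, limma 3.58.1 on log2(CPM + 1), the same with mouse weights or a pseudocount of 0.1, upper-quartile or total scaling, no filter, 0.5 CPM in at least 1 mouse, only the 6 mice compared, a replicate block, and each mouse left out. The scripts were tested on simulated data. Lengths and overlaps are from GENCODE M21 (GRCm38), and groups were taken from the sample labels. The members and lists were chosen with earlier results of these data known. Named beside the members are pathway genes with adjusted p under 0.1 in any comparison and, in each role list, the most abundant per kilobase and the one with the largest absolute log2 fold change in db/db against db/m. A cell-type list is described by its summed CPM.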

Additional observations from a re-analysis of the deposited data

How the results depend on the processing

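Every member was computed under 19 alternatives, 9 of which left out a mouse. Of the 570 member values so made, 516 kept their direction and their side of the adjusted p threshold, 24 passed it where they had not, 5 no longer passed it and 25 changed sign. Of 912 values for the other named genes the numbers were 838, 22, 20 and 32. The causes were not tested.

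Srebf1 in db/db-dapa against db/m kept its direction under all 19 and its call under 14, with log2 fold changes from 0.88 to 1.07. Members with an adjusted p under 0.1 in that comparison (1) became 2 with DESeq2, 5 with only the 6 mice compared and 6 with mouse weights, where 6.39%, 9.57% and 40.2% of all genes passed. With mouse weights they became 1 in db/db against db/m (3.54% of all genes) and 4 in db/db-dapa against db/db (6.93%), and members past both thresholds became 1, 2 and 2 in db/db against db/m, db/db-dapa against db/m and db/db-dapa against db/db. Scaling to library totals put 1 member (Srebf1) past both limits in db/db-dapa against db/m. The median of the members in db/db-dapa against db/db was 0.56 with mouse weights.

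The other pathway genes of db/db-dapa against db/m at an adjusted p under 0.1 (2 higher, 0 lower) became 8 higher with DESeq2, 4 higher with no filter, 12 higher and 1 lower with only the 6 mice compared, and 23 higher and 11 lower with mouse weights, where 6.39%, 2.04%, 9.57% and 40.2% of all genes passed beside 1.31% in edgeR as reported. In db/db against db/m (2 higher, 1 lower) there were 0 and 0 with only the 6 mice compared, 4 lower with DESeq2 and 3 lower with mouse weights (0.751%, 5.11% and 3.54% of all genes). Between db/db-dapa and db/db (0) there were 2 higher with DESeq2 and 12 higher and 1 lower with mouse weights (0.135% and 6.93% of all genes).

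In db/db against db/m the log2 fold changes of Acly and Fasn turned to -0.0321 and -0.0726 with limma on log2(CPM + 1), -0.14 and -0.14 with mouse weights, -0.0341 and -0.0776 with a pseudocount of 0.1, and -0.00692 and -0.019 with the replicate block, and Agpat2 to 0.016 with mouse weights. In db/db-dapa against db/m upper-quartile scaling turned Fads1 to -0.0205 and Agpat2 to -0.0051, and Thrsp turned to 0.36 with mouse weights and 0.56 with a pseudocount of 0.1. Tecr in db/db-dapa against db/db turned to -0.0859, -0.0596 and -0.051 with mouse weights, upper-quartile scaling and library totals. Scaling to library totals also moved the median of all genes in db/db against db/m from 0.020 to 0.13.

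With a mouse left out, members with an adjusted p under 0.1 ranged from 0 to 1 in db/db against db/m, 0 to 5 in db/db-dapa against db/m and 0 to 4 in db/db-dapa against db/db, and those past both thresholds from 0 to 1, 0 to 1 and 0 to 2. Other pathway genes past the threshold ranged in db/db against db/m from 0 to 2 higher and 0 to 2 lower, in db/db-dapa against db/m from 0 to 12 higher, and in db/db-dapa against db/db from 0 to 5 higher. Over the same fits the share of all genes at that threshold ranged from 0.552% to 1.94%, 0.0898% to 10.6% and 0% to 2.69%. Genes past both thresholds ranged from 85 to 230, 14 to 664 and 0 to 272 of 15583. The medians of the members ranged from -0.16 (without db/db replicate 3) to 0.31, from 0.32 to 0.73 (without db/m replicate 3) and from 0.11 to 0.62 (without db/db replicate 3) in the 3 comparisons.

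Signs changed for these log2 fold changes when a mouse was left out. In db/db against db/m the ranges were -0.15 to 0.55 for Acaca, -0.47 to 0.53 for Acly, -0.37 to 0.11 for Agpat2, -0.067 to 1.62 for Fads6, -0.44 to 0.44 for Fasn, -0.37 to 0.019 for Khk, -0.050 to 0.16 for Nr1h2, -0.53 to 0.32 for Scd2 and -0.0017 to 0.32 for Srebf1. For db/db-dapa relative to db/m they were -0.21 to 0.62 for Acacb, -0.15 to 0.33 for Agpat2, -0.026 to 0.099 for Fads1, -0.38 to 0.011 for Khk, -0.35 to 0.030 for Mlxipl, -0.66 to 0.19 for Scd2 and -0.94 to 2.27 for Thrsp. For db/db-dapa relative to db/db they were -0.17 to 0.22 for Cyb5a, -0.0046 to 0.33 for Elovl6, -0.21 to 1.19 for Fads6, -0.12 to 1.63 for Gpam, -0.12 to 0.061 for Khk, -0.17 to 0.021 for Mlxip, -0.089 to 0.095 for Prkag1, -0.12 to 0.94 for Scd1, -0.36 to 0.14 for Scd2 and -0.11 to 0.090 for Tecr.

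The fit did not pair the mice by replicate number, and whether same-numbered mice were handled together was not given in the sources used here. Correlations of same-numbered deviations ran from -0.32 to -0.13 for db/db with db/m and from -0.17 to 0.22 for db/db-dapa with db/m. For db/db-dapa with db/db they were 0.40, -0.16 and 0.56 in replicates 1, 2 and 3, so these values do not exclude a pairing there. With the replicate block Srebf1 in db/db-dapa against db/m was 0.96 with adjusted p = 0.0871 in edgeR, and the members past the threshold stayed 0, 1 and 0. At 12 to 76 counts per mouse, Scd1 is the member whose value rests on the fewest counts.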
